A study of Mus musculus with 6 samples.

Results

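The genes described here encode the NF-κB transcription factors, the IκB proteins that hold or steer them, the kinases of the IKK step, and the adaptor and ubiquitin-editing proteins upstream. The set was fixed by gene symbol, as 34 genes. Of these, 30 had a probe annotated with their symbol, on 60 probes in all, and each was followed on the probe with the highest mean over the 6 arrays. All 30 were above background on at least 2 arrays and so stand among the 9593 genes tested, of 19057 genes with a named probe. Nfkb1, Chuk, Traf3 and Ripk1 had no named probe. RNA came from CD4+ Foxp3-GFP+ pTreg cells, peripherally derived regulatory T cells sorted after transfer of naive T cells, and was hybridized to 6 Illumina MouseWG-6 v2 bead arrays. The comparison asks how T cells lacking Blimp1, the transcriptional repressor encoded by Prdm1, differ from Blimp1-sufficient cells that arose in the same hosts. The 3 Ctrl arrays hold cells of Prdm1+/+ mice carrying CD4-Cre, and the 3 CKO arrays hold cells of C57BL/6 mice with floxed Prdm1 on both alleles and CD4-Cre, labelled Blimp1CKO. The Cre therefore was present in both groups. Per the study's methods, both donors also carried the Foxp3-GFP reporter, donor cells were pooled over animals, the Ctrl cells were marked by Thy1.1, and naive cells of both genotypes were mixed and injected into RAG1-deficient mice, which have no T or B cells of their own. CD4-Cre deletes in all T cells, so the deletion preceded the conversion to pTreg cells. The sample labels disagree between fields, one naming iTreg cells and the other peripheral Treg cells. P+I stands in the labels of replicates 2 and 3, with no explanation, and is missing from those of replicate 1. The Il2 probe read 9308, 9867 and 13107 in Ctrl and 8597, 11086 and 6980 in CKO on replicates 1, 2 and 3. Its level in replicate 1 was thus the lowest of the Ctrl arrays and lay between the other replicates in CKO. Whether the cells were stimulated was not tested.

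NF-κB dimers wait in the cytoplasm bound to IκB proteins. Signals from the T cell receptor, TNF receptors or Toll and IL-1 receptors build ubiquitin chains on adaptor complexes, which activate the IKK kinases, and these mark IκB for destruction so that the dimers enter the nucleus. Many of the inhibitors are themselves induced by NF-κB, and in regulatory T cells the pathway is known for its part in the induction of Foxp3 and in the effector state.

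On replicates 1, 2 and 3 the Prdm1 probe read 18.9, 50.9 and 49.2 in Ctrl and 561, 341 and 704 in CKO. Its position relative to the deleted part was not known here, and its level therefore does not check the deletion. Foxp3 lay between 141 and 480 and Cd3e between 2337 and 4760 on the 6 arrays, while the single Cd4 probe was dim at 17.2 to 62.8. The summed intensity of 7 Treg markers, all above background, was 28938 to 38253 in Ctrl and 17727 to 22014 in CKO. Tnfrsf4 was the brightest of them and Foxp3 a small part of the sum. By sign 6 were lower in CKO, with a median log2 fold change of -0.63. Foxp3 was the 1 not lower, and was level at 0.03 ± 0.51 (SE). Of 9 myeloid markers, 7 were above background, and their summed intensity was 23483, 2531 and 32792 in Ctrl replicates 1, 2 and 3 and 12733, 1801 and 22793 in CKO. Myeloid signal thus differed more between replicates than between genotypes. The sum, made up mostly of S100a8 and S100a9, was nevertheless lower in CKO in each pair. All 7 markers were lower by the sign of the fitted value, with a median log2 fold change of -0.42 and Csf1r level at -0.0025. In pair 2, however, Lyz2, Cd14, Fcer1g and Tyrobp were higher in CKO, and only S100a8, S100a9 and Csf1r were lower. T cell markers, 7 of 8 of them above background, summed to 19087 to 25838 in Ctrl and 16585 to 19699 in CKO, with 5 of 7 lower in CKO and a median log2 fold change of -0.44. Cd8b1 lay between 544 and 1031 while Cd8a was not above background, and 2 erythroid markers summed to 539 to 1899, with the ranges of the groups overlapping for both. With background levels at 6.18 to 9.55 per array, sums were 13.1 to 29.9 for 3 of 6 B cell markers and 19.3 to 52.3 for 2 of 4 NK markers, and 1 of 5 dendritic markers was above background. The part of these markers in the levels below was not tested, and in bulk RNA fewer cells of a type cannot be told apart from less RNA per cell. P-values are from limma and measure only the spread between these samples, which the study calls biological replicates and which the labels do not tie to separate animals.

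Most genes of the set were somewhat lower in CKO, and the one that stood out was Bcl3, which encodes a nuclear IκB protein. By sign, 23 of the 30 members were lower and 7 higher in CKO, beside 47.6% of all genes lower. Birc3 is counted as lower by its fitted value, although most of its values were set at background. The median log2 fold change (CKO minus Ctrl throughout) was -0.25 over the members and 0.018 over all genes. Without CKO replicate 3 these were -0.08 and -0.0066. The median of the T cell markers above, on all arrays, was -0.44. At an adjusted p under 0.05 in limma 0 members were called, where 0.271% of all genes were called. On the probes followed there were 2 members at an unadjusted p under 0.05, Bcl3 and Traf5, beside 8.06% of all genes. The study's thresholds ask for a change of 1.5-fold or more together with an unadjusted p under 0.05. Bcl3 was the one member to meet them on the probe followed, as lower in CKO. Of all genes 7.42% met them, 4.34% as lower and 3.09% as higher in CKO. A dimmer probe of Birc2, not the one followed, also met them as lower. That share of members, 1 of 30, is no higher than the background.

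The replicate numbers pair the samples, and a fit with the number as a block changed these counts. With the block 1 member, Bcl3, passed an adjusted p of 0.05, beside 1.91% of all genes (1.16% lower and 0.751% higher in CKO). Bcl3, Nfkbia and Nfkbid then met the study's thresholds, beside 12% of all genes. At an unadjusted p under 0.05 with the block there were 5 members, these 3 with Traf5 and Ikbke. Beside them stood 1536 of all 9593 genes, a similar share. The CKO arrays lay wholly below the Ctrl arrays for 3 members, Bcl3, Ikbke and Traf6, beside 7.08% of all genes, and wholly above them for 1, Traf5, beside 5.95%. Precision is limited by the number of arrays, 3 in each group. The 95% interval of the fold change lay within 2-fold either way for 13 of the 30 members and within 1.5-fold for 2, and it excluded a 2-fold rise for 24 members and a 2-fold fall for 17.

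**Figure D1:**
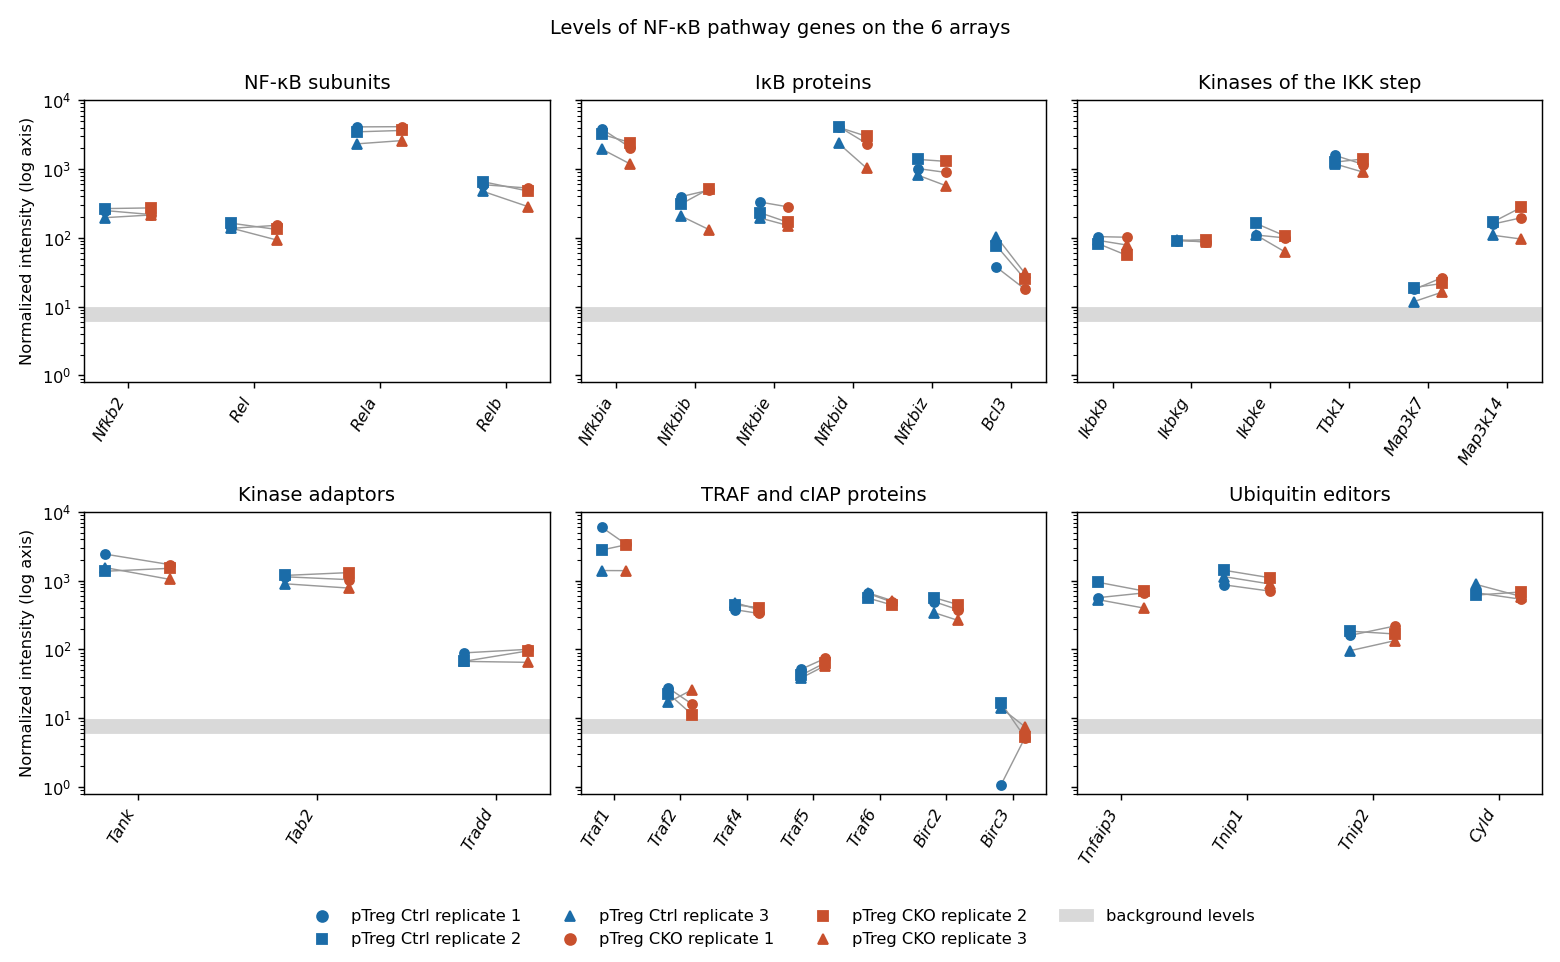
Normalized intensity (log axis) of the 30 measured genes on the 3 Ctrl (blue) and 3 CKO (red) arrays, by function, with lines joining arrays of one replicate number and a grey band for the background levels of 6.18 to 9.55. Bcl3 lies lower in CKO on every array, Traf5 lies higher, and most other genes overlap between the groups.

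None of the 4 measured NF-κB subunits met the study's thresholds. By sign 3 were lower and 1 higher in CKO, and their median log2 fold change was -0.13. Rela, the main transactivating subunit, read 4102, 3477 and 2327 in Ctrl (replicates 1, 2 and 3, the order kept below) and 4132, 3644 and 2595 in CKO. The groups overlapped almost completely, and replicate 3 was the dimmest in each. Its log2 fold change was 0.08 ± 0.30 (SE), with a 95% interval of -0.61 to 0.77 and an adjusted p of 0.99 in limma. Relb, the partner of the Nfkb2 product in the non-canonical pathway, had 593, 654 and 474 in Ctrl and 529, 478 and 283 in CKO. All 3 pairs were lower in CKO, with CKO replicate 3 lowest of all, but the groups overlapped. Its mean was 574 ± 91.9 in Ctrl against 430 ± 130 in CKO (SD, n = 3 each), a log2 fold change of -0.45 ± 0.30 (adjusted p = 0.83), and -0.18 without CKO replicate 3. Nfkb2 itself had 249, 266 and 197 in Ctrl and 218, 272 and 215 in CKO, with no common direction over the pairs. Rel, the c-Rel subunit that regulatory T cells need for their development, had 137, 163 and 138 in Ctrl and 152, 133 and 93.1 in CKO. The pair of replicate 1 was higher in CKO for Rel and the other pairs were lower, with a log2 fold change of -0.24 ± 0.26.

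The IκB proteins held the lowest fold changes of the set. Of 6 members 5 were lower in CKO, with a median log2 fold change of -0.51, and 1 met the study's thresholds. Bcl3, which binds NF-κB homodimers in the nucleus and can activate or repress their targets, had intensities of 37.5, 76.8 and 104 in Ctrl and of 17.98, 25.1 and 30.5 in CKO. Every CKO array lay below every Ctrl array, and all 6 were above background. The mean was 72.7 ± 33.4 in Ctrl against 24.5 ± 6.27 in CKO (SD, n = 3 each), which is 2.79-fold lower (log2 fold change -1.48 ± 0.40, 95% interval -2.41 to -0.55). The adjusted p in limma was 0.28. It was 0.029 with the replicate block and 0.10 with the slide as a block, and it ran from 0.029 to 0.74 over the 18 alternative settings. The log2 difference was -1.06, -1.61 and -1.77 within pairs 1, 2 and 3. Pair 1 is the whole of the first slide, and on the second slide alone the value was -1.69. A single probe carries this result.

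Nfkbid encodes IκBNS, a nuclear IκB protein known to assist the induction of Foxp3. Its intensities were 4153, 4048 and 2361 in Ctrl and 2334, 2980 and 1019 in CKO. Within each pair CKO was lower, but Ctrl replicate 3 lay among the CKO arrays. The mean was 3521 ± 1006 in Ctrl against 2111 ± 999 in CKO (SD, n = 3 each), 1.78-fold lower by the log2 means (log2 fold change -0.83 ± 0.43, adjusted p = 0.73, and 0.12 with the replicate block, in a range of 0.12 to 0.94 over the alternatives). Without CKO replicate 3 the log2 fold change was -0.37. Nfkbia encodes IκBα, the classical inhibitor that NF-κB induces as a feedback. It had 3834, 3190 and 1949 in Ctrl and 2055, 2432 and 1183 in CKO. Again each pair was lower in CKO while the groups overlapped through Ctrl replicate 3. Its log2 fold change was -0.67 ± 0.36 (adjusted p = 0.74, and 0.16 with the replicate block, in a range of 0.16 to 0.96), and a second, dimmer Nfkbia probe gave -0.66 ± 0.41. Nfkbie, another cytoplasmic inhibitor, had 332, 233 and 195 in Ctrl and 282, 168 and 151 in CKO, lower in each pair, at -0.36 ± 0.32. Nfkbiz, a nuclear IκB protein that activates a subset of targets, had 1018, 1382 and 818 in Ctrl and 893, 1294 and 573 in CKO, also lower in each pair, at -0.27 ± 0.35. Nfkbib alone of this group had a higher mean log2 value in CKO. Its intensities were 397, 309 and 208 in Ctrl and 494, 517 and 131 in CKO, so pairs 1 and 2 were higher and pair 3 was lower, with a log2 fold change of 0.13 ± 0.54.

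The promoters of Nfkbia and Nfkbid, the IκB genes next in fold change after Bcl3, are shown with that of Bcl3, because genes of this pathway are known targets of their own factors. Each is the 250 bases before a RefSeq start site in GRCm38.p6, given 5′ to 3′ along the gene. Capitals mark matches on either strand to the κB consensus. Nfkbia lies on the minus strand at chr12:55492648-55492897, with its match beginning 29 bases before the start. The window of Nfkbid, the second of the 3 listed for that gene, lies on the plus strand at chr7:30422156-30422405 with matches beginning 226 and 181 bases before the start. The other Nfkbid windows hold no match. The Bcl3 window, on the minus strand at chr7:19822756-19823005, holds no match, which says only that these letters are not in it.
Nfkbia: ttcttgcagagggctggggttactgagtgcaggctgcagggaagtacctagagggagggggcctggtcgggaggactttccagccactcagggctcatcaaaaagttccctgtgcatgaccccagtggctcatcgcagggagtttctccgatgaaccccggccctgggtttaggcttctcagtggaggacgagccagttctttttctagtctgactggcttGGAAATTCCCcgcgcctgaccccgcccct
Nfkbid: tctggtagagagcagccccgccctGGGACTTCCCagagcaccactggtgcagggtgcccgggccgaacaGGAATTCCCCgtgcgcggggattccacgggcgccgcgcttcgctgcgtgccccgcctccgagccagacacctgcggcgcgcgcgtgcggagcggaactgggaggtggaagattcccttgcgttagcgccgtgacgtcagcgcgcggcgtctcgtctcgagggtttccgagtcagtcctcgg
Bcl3: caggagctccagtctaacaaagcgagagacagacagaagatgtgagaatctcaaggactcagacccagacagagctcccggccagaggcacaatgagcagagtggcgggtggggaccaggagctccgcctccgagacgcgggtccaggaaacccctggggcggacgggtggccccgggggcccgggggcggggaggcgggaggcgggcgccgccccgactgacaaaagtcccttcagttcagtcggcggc
Of the 30 measured members, 26 had a promoter window in the RefSeq table, with 39 windows between them. The κB consensus was found for 10 of these 26 genes (38.5%), beside 4.46% of all 27025 genes of the table. Counted by window it was 33.3% for the members, beside 3.9% of all windows. The 10 are Cyld, Map3k7, Nfkb2, Nfkbia, Nfkbid, Nfkbie, Rel, Tank, Tnfaip3 and Tnip1. Their median log2 fold change was -0.28, with 9 of 10 lower in CKO, and that of the 16 genes with a window and no match was -0.21, with 11 of 16 lower. Members with and without a match were thus mostly lower alike by sign, and the difference between them was not tested.

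**Figure D2:**
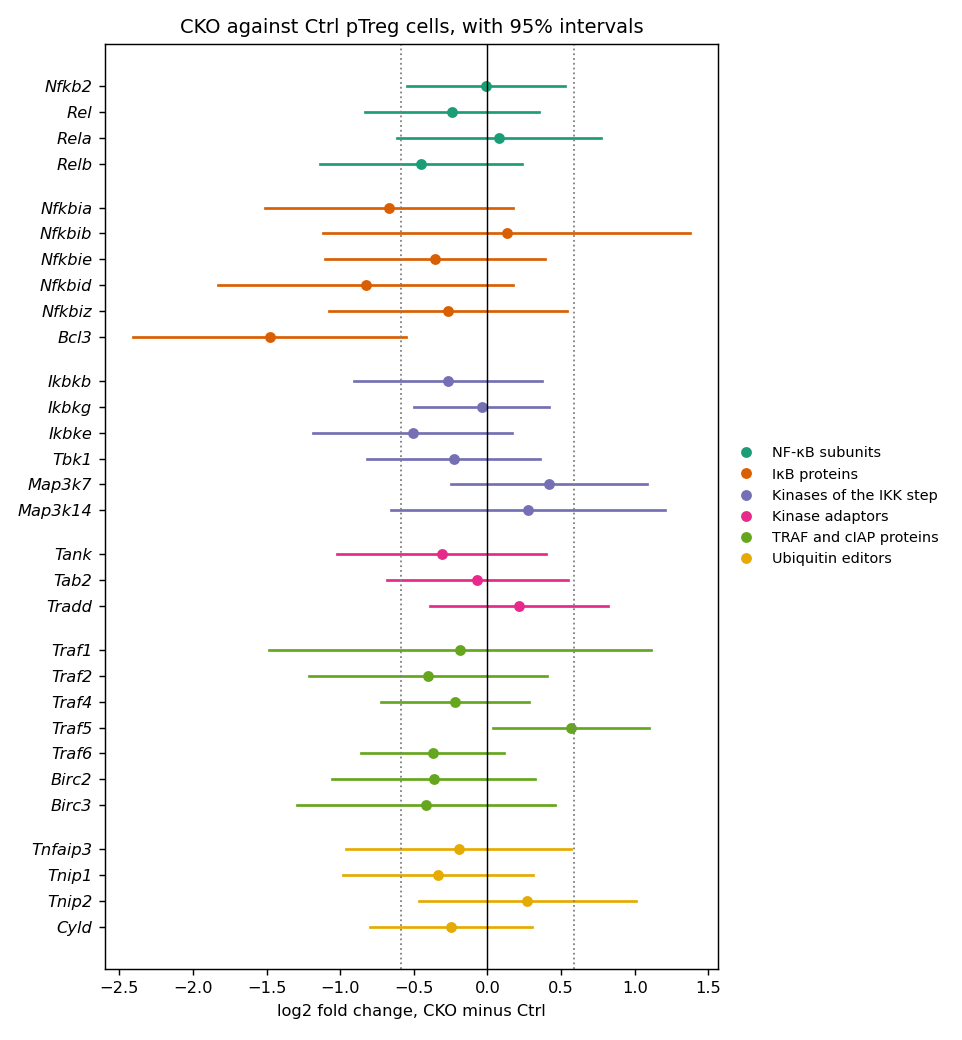
Log2 fold change (CKO minus Ctrl) of the 30 genes with 95% intervals from limma, coloured by function, with dotted lines at 1.5-fold either way. The interval excludes 0 for Bcl3 (-2.41 to -0.55) and Traf5 (0.040 to 1.10), and Birc3 is drawn at its fitted value, with all CKO arrays and Ctrl replicate 1 set at background.

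The IKK-step kinases showed no common direction. Of 6 measured kinases 4 were lower and 2 higher in CKO, none met the study's thresholds, and the median log2 fold change was -0.13. Ikbke, which encodes the inducible IKK-related kinase IKKε, had intensities of 110, 162 and 110 in Ctrl and 99.9, 107 and 62.9 in CKO. The CKO arrays lay below the Ctrl arrays without overlap, but by little. The lowest Ctrl array, replicate 3, read 109.6 and the highest CKO array, replicate 2, read 107.3. Within the pair of replicate 1 the log2 difference was -0.14. The mean was 127 ± 29.9 in Ctrl against 90.1 ± 23.8 in CKO (SD, n = 3 each), a log2 fold change of -0.51 ± 0.29 (adjusted p = 0.77, and 0.30 with the replicate block, in a range of 0.30 to 0.998), and -0.27 without CKO replicate 3. Tbk1, its constitutive relative, had 1579, 1262 and 1187 in Ctrl and 1164, 1403 and 899 in CKO, with pair 2 higher and the other pairs lower, at -0.23 ± 0.25, and at -0.061 without CKO replicate 3. Ikbkg, the regulatory subunit NEMO, was the steadiest member, with 91.0, 91.2 and 93.7 in Ctrl and 87.5, 93.9 and 87.0 in CKO. Its 95% interval ran from -0.50 to 0.42, within 1.5-fold either way. Ikbkb, the catalytic subunit of canonical signalling, had 104, 82.1 and 91.7 in Ctrl and 102, 55.7 and 78.6 in CKO, lower in each pair but overlapping. Map3k7, the kinase TAK1 that activates IKK, was dim, with 17.7, 18.9 and 11.8 in Ctrl and 26.4, 21.8 and 16.3 in CKO. All 3 pairs were higher in CKO, and the groups overlapped (log2 fold change 0.41 ± 0.29). Map3k14, the kinase NIK of the non-canonical pathway, had 158, 170 and 109 in Ctrl and 196, 277 and 96.0 in CKO, with pairs 1 and 2 higher and pair 3 lower.

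The Ikbke promoter is shown because it held the most matches in the set to AGNGAAAG, the core of the sequence that Blimp1 is known to bind, which also overlaps the sequences bound by interferon regulatory factors. Capitals mark its 3 matches, on either strand, beginning 133, 53 and 31 bases before the start. Those at 53 and 31 lie in a run made up almost only of G and A. The window lies on the minus strand at chr1:131279564-131279813 (GRCm38.p6), and the match at 133 is on the opposite strand of the gene.
Ikbke: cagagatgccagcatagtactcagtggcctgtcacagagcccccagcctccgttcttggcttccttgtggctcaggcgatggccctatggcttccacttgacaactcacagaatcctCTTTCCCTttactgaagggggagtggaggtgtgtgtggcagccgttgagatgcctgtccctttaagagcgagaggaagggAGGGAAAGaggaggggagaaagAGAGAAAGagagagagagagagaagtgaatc
AGNGAAAG was found for 4 of the 26 members with a window (15.4%), Cyld, Ikbke, Nfkb2 and Tnip2, beside 8.42% of all genes of the table. Members had more windows per gene, 39 for 26 genes beside 32851 for 27025 over the table. No binding was measured here, and neither Bcl3 nor Traf5 is among the 4.

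Of the 3 measured kinase adaptors 2 were lower and 1 higher in CKO by sign. Tank, which links TRAF proteins to the IKK-related kinases, had intensities of 2425, 1369 and 1545 in Ctrl and 1709, 1511 and 1043 in CKO. Pairs 1 and 3 were lower in CKO and pair 2 was higher, giving a log2 fold change of -0.31 ± 0.31 (-0.10 without CKO replicate 3), and the other Tank probes above background gave -0.39 and 0.67. Tab2, which ties ubiquitin chains to TAK1, had 1139, 1190 and 901 in Ctrl and 1033, 1309 and 779 in CKO. Tradd, the adaptor of TNF receptor death domains, had 89.0, 67.0 and 67.0 in Ctrl and 100.4, 95.3 and 64.9 in CKO, and its probes differed in sign. The groups overlapped for all 3 genes, and none met the study's thresholds.

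Among the TRAF and cIAP genes, Traf5 was the one higher by sign and the other 6 were lower. Birc3 is counted among the 6 by its fitted value only. Traf5, an adaptor of TNF receptor family members that is known to restrain IL-6 receptor signals in T cells, had intensities of 51.7, 42.4 and 38.6 in Ctrl and 74.2, 63.9 and 58.1 in CKO. Every CKO array was above every Ctrl array, and the pairs gave nearly one value, 0.52, 0.59 and 0.59 on the log2 scale. The mean was 44.2 ± 6.73 in Ctrl against 65.4 ± 8.16 in CKO (SD, n = 3 each), 1.48-fold higher (log2 fold change 0.57 ± 0.23, adjusted p = 0.54, and 0.19 with the replicate block, in a range of 0.19 to 0.998), just under the 1.5-fold of the study's thresholds. A second Traf5 probe gave 0.79 ± 0.52. Traf6, the ubiquitin ligase of Toll and IL-1 receptor signalling, ran the other way, with 651, 559 and 665 in Ctrl and 489, 443 and 514 in CKO. No CKO array reached the lowest Ctrl array. The mean was 625 ± 57.2 in Ctrl against 482 ± 35.97 in CKO (SD, n = 3 each), a log2 fold change of -0.37 ± 0.21 (adjusted p = 0.76), and its other probes gave -0.15 and -0.19.

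Traf1, a TRAF protein that NF-κB induces, varied more between replicates than between genotypes. It had intensities of 5960, 2791 and 1401 in Ctrl and 3403, 3313 and 1397 in CKO. Pair 1 was lower in CKO, pair 2 higher and pair 3 level, so the log2 fold change was -0.19 ± 0.56 with an interval of -1.49 to 1.11. Without Ctrl replicate 1 it was 0.34. Traf4 had 378, 445 and 481 in Ctrl and 334, 405 and 377 in CKO, lower in each pair on the brightest probe. Its other probes above background gave -0.54, 0.040 and -0.61, the first with an unadjusted p of 0.049 in limma. Traf2, which joins TNF receptors to the cIAP ligases, was dim, with 27.4, 22.8 and 17.1 in Ctrl and 15.9, 11.2 and 26.0 in CKO, and pair 3 ran against the others. Birc2, the ligase cIAP1, had 494, 564 and 341 in Ctrl and 377, 447 and 263 in CKO. Its pairs gave -0.39, -0.34 and -0.37, but its other probes above background gave -1.04, -0.53 and 0.46. The dimmer probe at -1.04 had an unadjusted p of 0.030 in limma and so met the study's thresholds. Birc3, the NF-κB-induced ligase cIAP2, was above background on 2 Ctrl arrays and on 0 CKO arrays, with 1.06, 16.8 and 14.1 in Ctrl and 5.17, 5.29 and 7.53 in CKO. Ctrl replicate 1 was the lowest of the 6, so no fold is given (adjusted p = 0.91).

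The genes for ubiquitin editors that end NF-κB signals, and for the A20-binding proteins grouped with them, were also mostly lower without passing a threshold. Tnip1, the A20-binding protein ABIN1, had intensities of 868, 1414 and 1142 in Ctrl and 705, 1104 and 896 in CKO. All 3 pairs were lower in CKO, by -0.30, -0.36 and -0.35 on the log2 scale, while the groups overlapped because replicates differed more than genotypes. The mean was 1141 ± 273 in Ctrl against 902 ± 199 in CKO (SD, n = 3 each), a log2 fold change of -0.33 ± 0.28. Tnfaip3, the editing enzyme A20 itself, had 566, 945 and 528 in Ctrl and 662, 709 and 400 in CKO, with pair 1 higher and the others lower, at -0.20 ± 0.33. Cyld, a deubiquitinase, had 667, 616 and 882 in Ctrl and 536, 685 and 587 in CKO, at -0.25, and a second probe gave -0.30. Tnip2, a relative of Tnip1, had 160, 184 and 95.9 in Ctrl and 220, 168 and 135 in CKO, at 0.27.

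Over the replicate pairs, 12 members were lower in CKO in all 3 pairs, beside 18.1% of all genes. They are Relb, 5 of the 6 IκB genes (Nfkbia, Nfkbie, Nfkbid, Nfkbiz and Bcl3), Ikbkb, Ikbke, Traf4, Traf6, Birc2 and Tnip1. Higher in all 3 were Rela, Map3k7 and Traf5, beside 19.5% of all genes, and 15 members were mixed. The median log2 difference of the members was -0.17, -0.13 and -0.37 in pairs 1, 2 and 3, beside 0.073, 0.042 and -0.066 over all genes, with 20, 17 and 24 of the 30 members lower. CKO replicate 3 was the lowest of the 6 arrays for 17 members and the highest for 0, beside 16.8% and 19.5% of all genes. Without that array the median over the members was -0.08. Over all 51 member probes above background on at least 2 arrays, 37 were lower and 14 higher in CKO. Of 14 members with more than 1 such probe, 9 had one sign on every probe and 5 (Birc2, Ikbkg, Tank, Tradd and Traf4) did not.

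**Figure D3:**
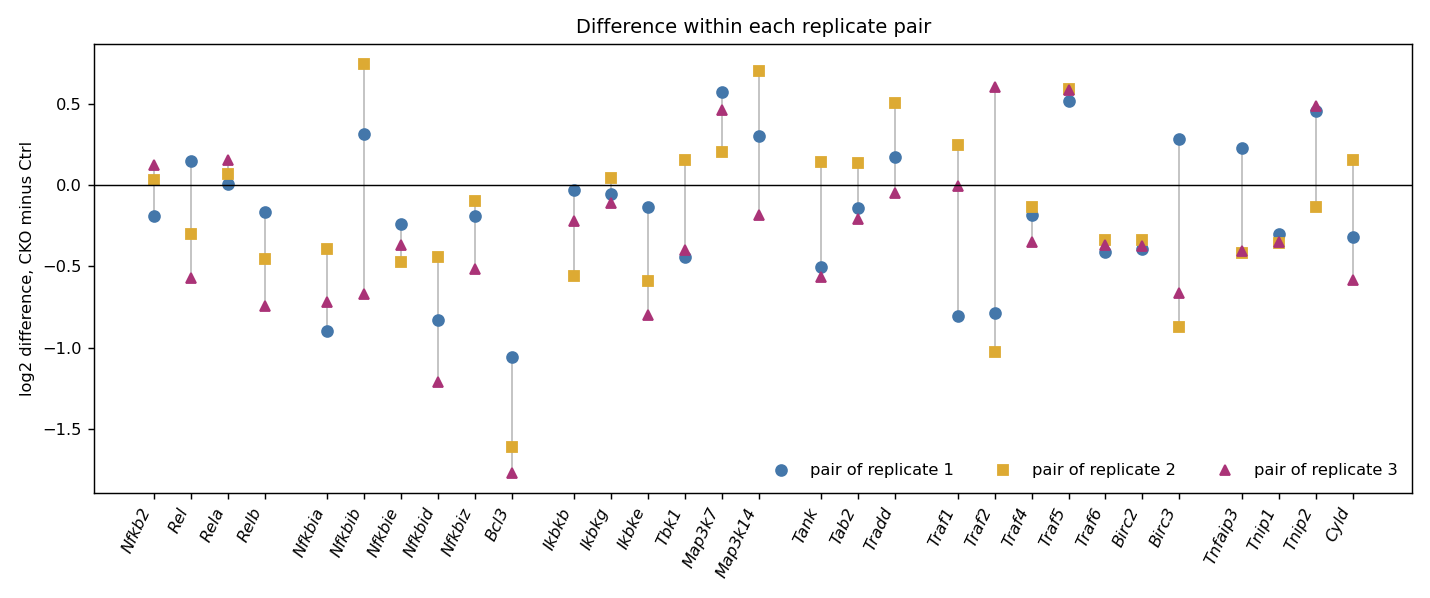
Log2 difference, CKO minus Ctrl, within each of the 3 replicate pairs for the 30 genes, grouped by function as in the plot of levels. Bcl3 lies at -1.06 to -1.77 and Traf5 at 0.52 to 0.59, while Traf1, Traf2 and Nfkbib cross 0 between pairs.

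Other genes of the pathway were counted in 6 lists, and 0 of their tested genes passed an adjusted p of 0.05 in limma without the block. The unadjusted p was under 0.05 for 2 genes from the antigen receptor to IKK, 4 of the Toll and IL-1 receptor branch, 3 TNF receptors, 4 genes known to be activated by NF-κB, and 0 in the remaining lists, beside 8.06% of all genes. The counts below stand beside 47.6% of all genes lower by sign, 7.42% at the study's thresholds and 1.91% past the adjusted threshold with the replicate block. From the antigen receptor to IKK, 7 of 10 genes were tested and 6 were lower in CKO, with a median log2 fold change of -0.31. Malt1, the protease of the complex that carries receptor signals to IKK, met the study's thresholds, with a mean of 156 ± 56.8 in Ctrl against 77.4 ± 23.9 in CKO (SD, n = 3 each) (adjusted p = 0.45). Of the ubiquitin chain enzymes 15 of 15 were tested, 8 were lower and 7 higher, none met the study's thresholds, and the median was -0.019.

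In the Toll and IL-1 receptor branch 9 of 11 tested genes (of 14) were lower in CKO, and 4 met the study's thresholds, in both directions. Peli1, a ubiquitin ligase, had a mean of 619 ± 32.3 in Ctrl against 308 ± 45.0 in CKO (SD, n = 3 each), and Irak3, an inhibitory kinase relative, had 39.9 ± 17.2 against 12.6 ± 6.43 (SD, n = 3 each). Sigirr, an inhibitory receptor, went the other way, with 106 ± 43.7 in Ctrl against 263 ± 84.6 in CKO (SD, n = 3 each), as did Il1rap, the shared IL-1 receptor chain, at a log2 fold change of 0.80. With the replicate block Irak3, Sigirr and Peli1 passed, with adjusted p-values of 0.038, 0.041 and 0.0499. Over the alternatives these ran up to 0.79, 0.75 and 0.60.

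Of the TNF receptors 7 of 9 tested genes (of 12) were lower, with a median log2 fold change of -0.48. Tnfrsf1b, which encodes TNFR2, had 594 ± 94.9 in Ctrl against 267 ± 30.6 in CKO (SD, n = 3 each) and passed with the replicate block (adjusted p = 0.035, up to 0.59 over the alternatives). Tnfrsf18, which encodes GITR and is also one of the Treg markers summed above, had 3817 ± 1121 against 1575 ± 21.5 (SD, n = 3 each). Of 20 genes known to be activated by NF-κB in T cells 19 were tested, 16 were lower, and the median was -0.31. Icam1, an adhesion molecule, had 455 ± 83.6 in Ctrl against 214 ± 24.1 in CKO (SD, n = 3 each) (adjusted p = 0.16, and 0.045 with the replicate block, up to 0.59 over the alternatives). The chemokine genes Ccl3 and Ccl4 were lower at -1.36 and -0.82, and Ccl3 passed with the replicate block (adjusted p = 0.049, up to 0.99). Lta, which encodes lymphotoxin alpha, was higher, with 262 ± 49.9 in Ctrl against 667 ± 189 in CKO (SD, n = 3 each). Of the early stimulation genes, which share Il2, Tnf, Cd69 and Myc with that list, 16 of 17 were tested, 11 were lower, none met the study's thresholds, and the median was -0.27.

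**Figure D4:**
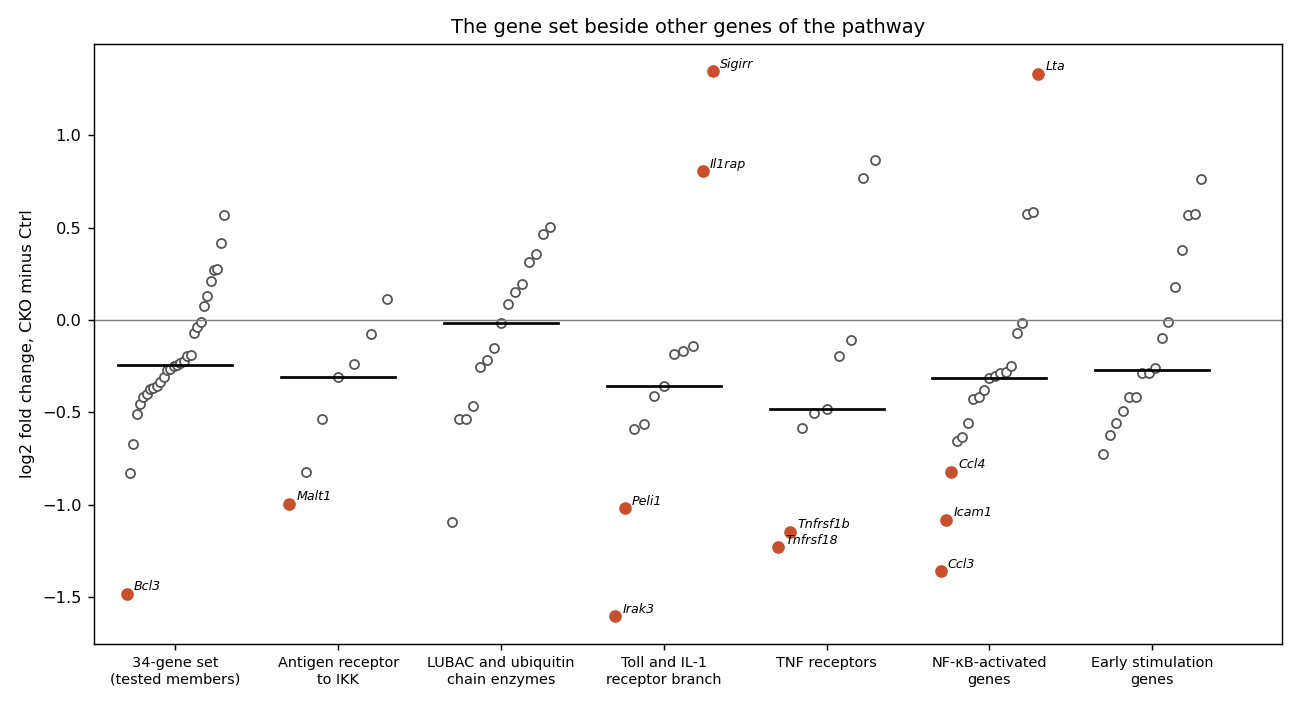
Log2 fold change (CKO minus Ctrl) of each tested gene in the set and in the 6 pathway lists, with a bar at each median and filled, named points for genes that met the study's thresholds. The medians run from -0.48 for TNF receptors to -0.019 for ubiquitin chain enzymes, with -0.25 for the set itself.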

How the data were processed

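Total RNA of sorted pTreg cells was amplified, biotin labelled and hybridized to Illumina MouseWG-6 v2 arrays. Groups follow the genotype label. The authors exported the deposited values, linear intensity per probe, from Genome Studio after quantile normalization. Between 35.4% and 36.0% of values per array lie below 0, so background had been subtracted. Sorted values were nearly equal within a slide and not between slides, so all 6 arrays were quantile normalized again. The background level of each array was set from 1504 probes of olfactory and vomeronasal receptors, at their 95th percentile. Values under that level were set to it before log2 transformation. Probes above background on at least 2 arrays with 1 gene symbol were kept, and the brightest probe stood for a gene. Fold changes are differences of log2 means, while the intensities given are linear. Levels are compared within a probe only.

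CKO was set against Ctrl with limma 3.58.1 (R 4.3.3), without a block because the methods name none, and p-values were adjusted by Benjamini-Hochberg over 9593 genes. The labels give the Ctrl and CKO samples of replicates 2 and 3 a shared day, replicate 1 is the pair of the first slide, and deviations from the group means correlated at 0.51, 0.49 and 0.56 between samples of one number. The number was therefore also fitted as a block. The fit without a block was tested on simulated data with errors independent between arrays, so without the pairing. Changes were placed only in genes with a mean log2 value above 6, which leaves out dim genes such as Bcl3 and Traf5. Values on every array were required for members past a threshold and, in each of 6 functional groups, for the member with the highest mean and the one with the smallest p. Of each pathway list up to 4 genes past a threshold were named. The members and lists were chosen with earlier results of these data known. Promoters are from RefSeq. Detection p-values and the arrays of Teff cells are not used here.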

Additional observations from a re-analysis of the deposited data

How the results depend on the processing

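Of 180 values of the 10 members picked by the naming rule, over 18 alternative settings, 167 kept their direction and side of the study's thresholds. Bcl3 met them in all 18, at -1.90 to -1.07. At the adjusted threshold and the study's thresholds, the replicate block changed no call of a member beyond Bcl3, Nfkbia and Nfkbid. The member count at an adjusted p under 0.05 was 1 (Bcl3) with the replicate block or with no filter on dim probes, and 0 otherwise. The count at the study's thresholds was 3 with the block, 3 with no filter, 2 with the mean of all kept probes, 3 without both arrays of pair 1, 2 without both arrays of pair 3 and 1 to 3 leaving out 1 array. Nfkbid met them with the block and with no filter, at -1.15 without CKO replicate 2 and at -1.09 without Ctrl replicate 3, but was at -0.37 without CKO replicate 3. Traf5 did with the mean of all kept probes (0.68) and without both arrays of pair 1 (0.59), without Ctrl replicate 1 (0.69) or without CKO replicate 3 (0.65). Leaving out 1 array, the median over members was -0.30 to -0.081 (without CKO replicate 3), Rela reversed within -0.15 to 0.27 and Traf1 within -0.70 to 0.34. Traf1 was also reversed at 0.12 without both arrays of pair 1. Over all genes the adjusted count of 26 became 183 with the block, 16 with the slide block, 150 with no filter, 50 with trend and robust settings, 1 to 14 leaving out 1 array, 1 without pair 2, and 0 without pair 1 or pair 3 (677 and 587 at an unadjusted p under 0.05 in limma). The 712 genes at the study's thresholds became 1154 with the block. The cause of these shifts was not tested, beyond the fewer arrays of the settings that leave some out. Leaving out pairs 2 and 3 was added after seeing the data. Of 108 counts over the pathway lists 29 moved by more than 1.5 times. Birc3 has 4 of its 6 values set at the background level, so its fold change is not determined.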
